A study of Homo sapiens with 12 samples.

Results

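The genes described here are targets of the hypoxia-inducible factors that lie outside glycolysis, 37 in number, taken from a fixed list of gene names. Of these, 36 were measured, by 98 probe sets that name no other gene, among 19775 genes tested in all; 1 of the 37 listed genes is not analysed here. The cells were IMR-90, fibroblasts from human lung that stop dividing after a limited number of doublings, and their RNA was read on 12 Affymetrix arrays, 3 for each of 4 groups. Young cells at population doubling 30 and senescent cells at population doubling 48 grew at 20% oxygen; young cells at population doubling 30 and old, nonsenescent cells at population doubling 53 grew at 3% oxygen. Both oxygen levels used the same serum-supplemented medium and harvest at the same confluency, but separate incubators, so oxygen and incubator cannot be told apart. Senescent and old cells differ in oxygen, senescence and population doubling at once, and these cannot be told apart either. The labels call the 3 arrays of a group biological replicates and do not say how the cultures were separated.

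Hypoxia-inducible factors are pairs of an oxygen-sensitive alpha subunit and the stable subunit ARNT. In well-oxygenated cells prolyl hydroxylases mark the alpha subunit, the VHL ubiquitin ligase binds it and it is degraded; at low oxygen it persists, enters the nucleus and binds short DNA elements at its target genes. Besides glucose metabolism, these targets serve blood vessel growth, mitochondrial turnover, lipid and glycogen storage, histone demethylation and restraint of growth signalling.

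The values are log2 signals, centred so that every probe set has a median of 0 across the 12 arrays, and averaged per gene, so differences between groups can be read but no level can be compared between genes. No source used here gives the base of the logarithm, which is taken as 2. Below, a change is a difference of group means on this scale with its standard error after the ± sign (n = 3 arrays a group), a fold is the same change unlogged, and a gene is called where limma's Benjamini-Hochberg adjusted p over the 19775 genes is under 0.05. Because RNA of whole cultures was measured, fewer cells of a type and less RNA per cell cannot be told apart. The identity of the cells could not be read from marker levels, for the same reason of centring.

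Averaged over the 36 genes, the young arrays at 20% oxygen lay lowest, at -0.67 ± 0.04 (SD over 3 arrays). The means were 0.27 ± 0.07 (SD) in senescent cells at 20%, 0.02 ± 0.04 in young cells at 3% and 0.02 ± 0.10 in old cells at 3%. For 22 of the 36 genes, all 3 young arrays at 20% lay below the other 9 arrays, a pattern that 3.69% of all genes showed. The reverse, young arrays at 20% above the other 9, was seen for 0 of the 36 and 6.37% of all genes. None of the 36 had its 3 lowest arrays in senescent cells (4.15% of all genes), in young cells at 3% (1.73%) or in old cells at 3% (1.46%), and none its 3 highest in young cells at 3% (1.12%). The median SD within a group was 0.13 over these genes and 0.16 over all genes.

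**Figure D1:**
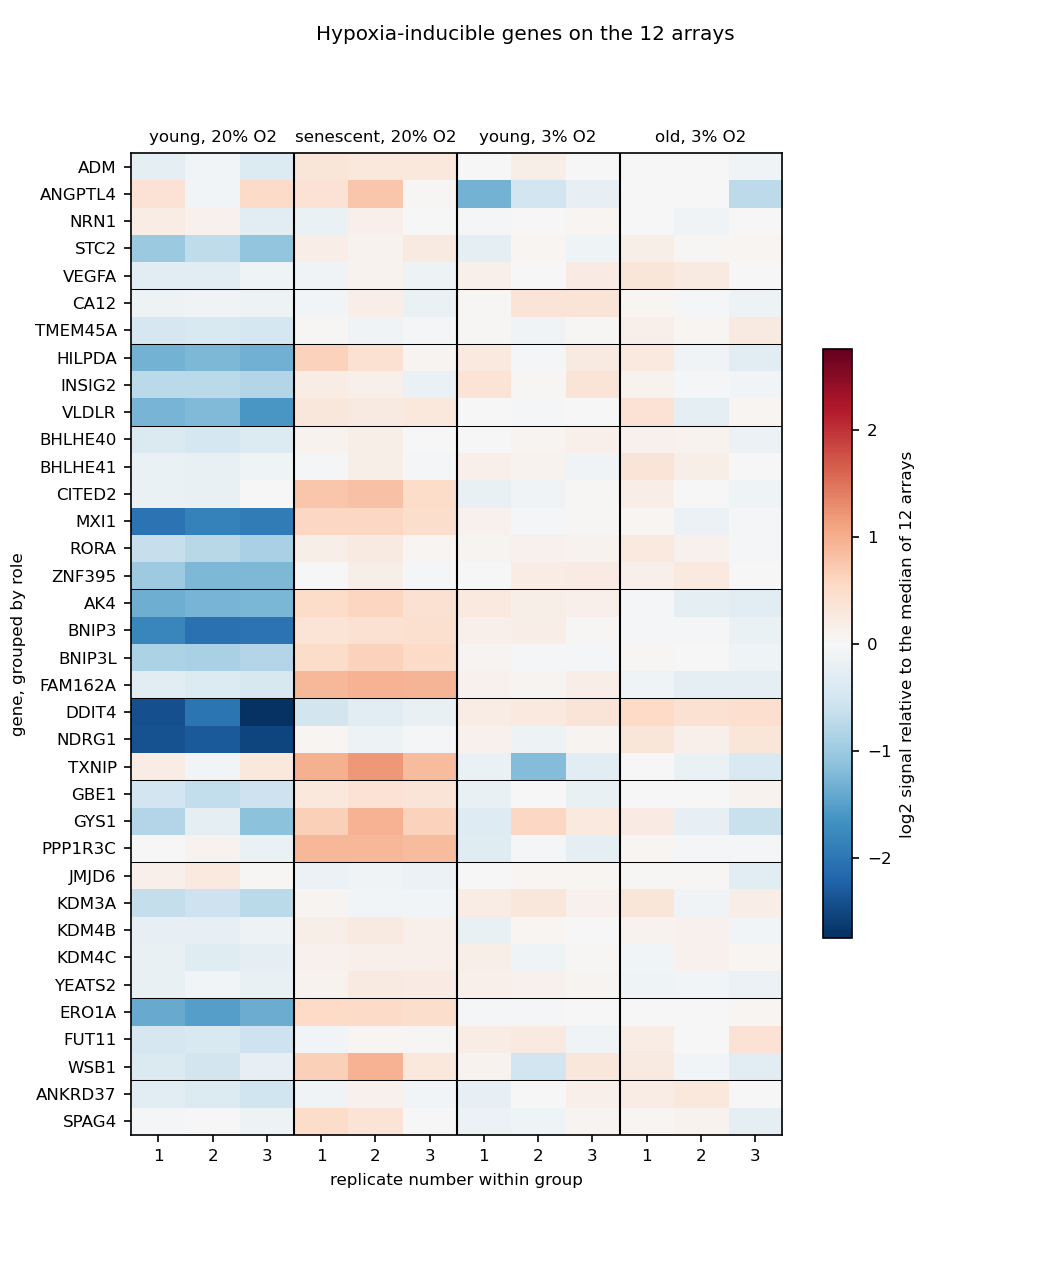
Heat map of the 36 genes (vertical axis, grouped by role) on the 12 arrays (horizontal axis, 3 replicates in each of the 4 groups); colour gives the log2 signal relative to the median of the 12 arrays. The young arrays at 20% oxygen are low for most genes, with ANGPTL4, TXNIP, PPP1R3C, NRN1 and JMJD6 among the exceptions.

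The DNA element of these factors has the core ACGTG or GCGTG, and the promoters below are printed to show where that core stands in 6 genes that the results turn on. RefSeq (GRCh38.p14) gave a promoter of 300 bases, from 250 before to 50 after the start, for 29 of the 36 genes. A single start was taken for each gene, and any other starts were not searched. Searched on both strands, 24 of the 29 (82.8%) held ACGTG or GCGTG, against 56.4% of the 15384 promoters of tested genes. The core ACGTG stood in 58.6% against 24.1%, and GCGTG in 58.6% against 44.3%. The palindrome CACGTG, which reads as ACGTG on both strands and so counts as 2 overlapping matches, stood in 37.9% against 8.90%. Such lists are drawn up partly from genes known to carry this element, and a match in these letters shows no binding. In the following sequences, read 5′ to 3′ in the direction of each gene, capitals mark every base of a core match on either strand. BNIP3 (chr10:131981874-131982173, minus strand) holds 6 matches, the mTORC1 inhibitor gene DDIT4 (chr10:72273674-72273973, plus strand) 4, and the glycogen-targeting gene PPP1R3C (chr10:91633022-91633321, minus strand) 4. FAM162A (chr3:122383932-122384231, plus strand) holds 4 and ERO1A (chr14:52695509-52695808, minus strand) 3. MXI1 (chr10:110207355-110207654, plus strand), the gene with the largest change between senescent and young cells at 20% among the 36, holds 0 in this window.
BNIP3: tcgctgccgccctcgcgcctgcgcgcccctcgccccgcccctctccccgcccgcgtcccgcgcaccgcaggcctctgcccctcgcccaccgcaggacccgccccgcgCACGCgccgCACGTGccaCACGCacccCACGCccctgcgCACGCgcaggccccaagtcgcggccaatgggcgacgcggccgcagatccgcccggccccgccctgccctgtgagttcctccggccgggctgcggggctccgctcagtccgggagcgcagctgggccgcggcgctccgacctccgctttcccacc
DDIT4: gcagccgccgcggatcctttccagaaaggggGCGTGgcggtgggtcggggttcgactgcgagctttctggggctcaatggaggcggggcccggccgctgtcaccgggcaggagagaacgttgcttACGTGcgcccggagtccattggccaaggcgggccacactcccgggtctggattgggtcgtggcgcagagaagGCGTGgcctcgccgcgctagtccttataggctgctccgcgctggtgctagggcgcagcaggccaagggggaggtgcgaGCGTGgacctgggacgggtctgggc
PPP1R3C: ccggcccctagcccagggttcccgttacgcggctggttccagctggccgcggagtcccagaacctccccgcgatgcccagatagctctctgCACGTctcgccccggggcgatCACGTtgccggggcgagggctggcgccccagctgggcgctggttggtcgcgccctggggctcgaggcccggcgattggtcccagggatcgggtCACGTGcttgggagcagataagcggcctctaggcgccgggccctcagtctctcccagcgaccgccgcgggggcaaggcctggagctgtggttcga
FAM162A: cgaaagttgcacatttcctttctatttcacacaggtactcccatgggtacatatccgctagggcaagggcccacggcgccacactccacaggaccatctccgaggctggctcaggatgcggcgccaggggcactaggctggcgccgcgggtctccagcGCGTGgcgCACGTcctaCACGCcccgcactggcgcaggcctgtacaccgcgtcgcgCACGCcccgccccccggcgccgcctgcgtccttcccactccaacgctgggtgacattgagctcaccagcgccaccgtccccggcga
ERO1A: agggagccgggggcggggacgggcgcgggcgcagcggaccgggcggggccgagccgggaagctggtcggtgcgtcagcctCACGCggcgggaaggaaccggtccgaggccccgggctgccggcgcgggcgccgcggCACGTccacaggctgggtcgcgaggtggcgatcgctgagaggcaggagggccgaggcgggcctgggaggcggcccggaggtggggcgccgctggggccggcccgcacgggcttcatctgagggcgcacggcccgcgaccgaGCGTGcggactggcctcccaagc
MXI1: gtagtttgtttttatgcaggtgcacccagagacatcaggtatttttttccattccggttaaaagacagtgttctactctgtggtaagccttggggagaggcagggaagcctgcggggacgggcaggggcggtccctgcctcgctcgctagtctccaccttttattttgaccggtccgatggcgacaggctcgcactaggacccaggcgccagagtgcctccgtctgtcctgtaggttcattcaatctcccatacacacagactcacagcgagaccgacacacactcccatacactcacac

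Senescent cells were compared with young cells at 20% oxygen to see how these genes differ once the cells have stopped dividing at that oxygen level. Of the 36 genes, 28 were called higher (77.8%) and 0 lower, where 4.67% of all genes were called higher and 7.84% lower. In either direction, 12.5% of all genes were called. The arrays of the 2 groups did not overlap for 30 genes in the higher and 1 in the lower direction, against 14.1% and 15.2% of all genes. The median change was 0.85, against 0.04 over all genes. All 3 lipid genes, all 4 mitochondrial genes, all 3 glycogen genes, all 3 growth and stress regulators and all 3 genes of protein modification were called higher, as were 5 of 6 transcriptional regulators, 4 of 5 chromatin genes, 2 of 5 secreted factors and 1 of 2 membrane proteins. Young cells at 3% oxygen were compared with the same young arrays at 20%, which shows the difference between oxygen levels before senescence. There 19 genes were called higher (52.8%) and 1 lower, where 4.96% of all genes were called higher and 6.84% lower, and the median change was 0.48 against -0.03. The groups did not overlap for 26 genes in the higher and 2 in the lower direction, against 12.5% and 17.2% of all genes. Because both comparisons subtract the same 3 arrays, they are not independent, and their values are given side by side below.

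**Figure D2:**
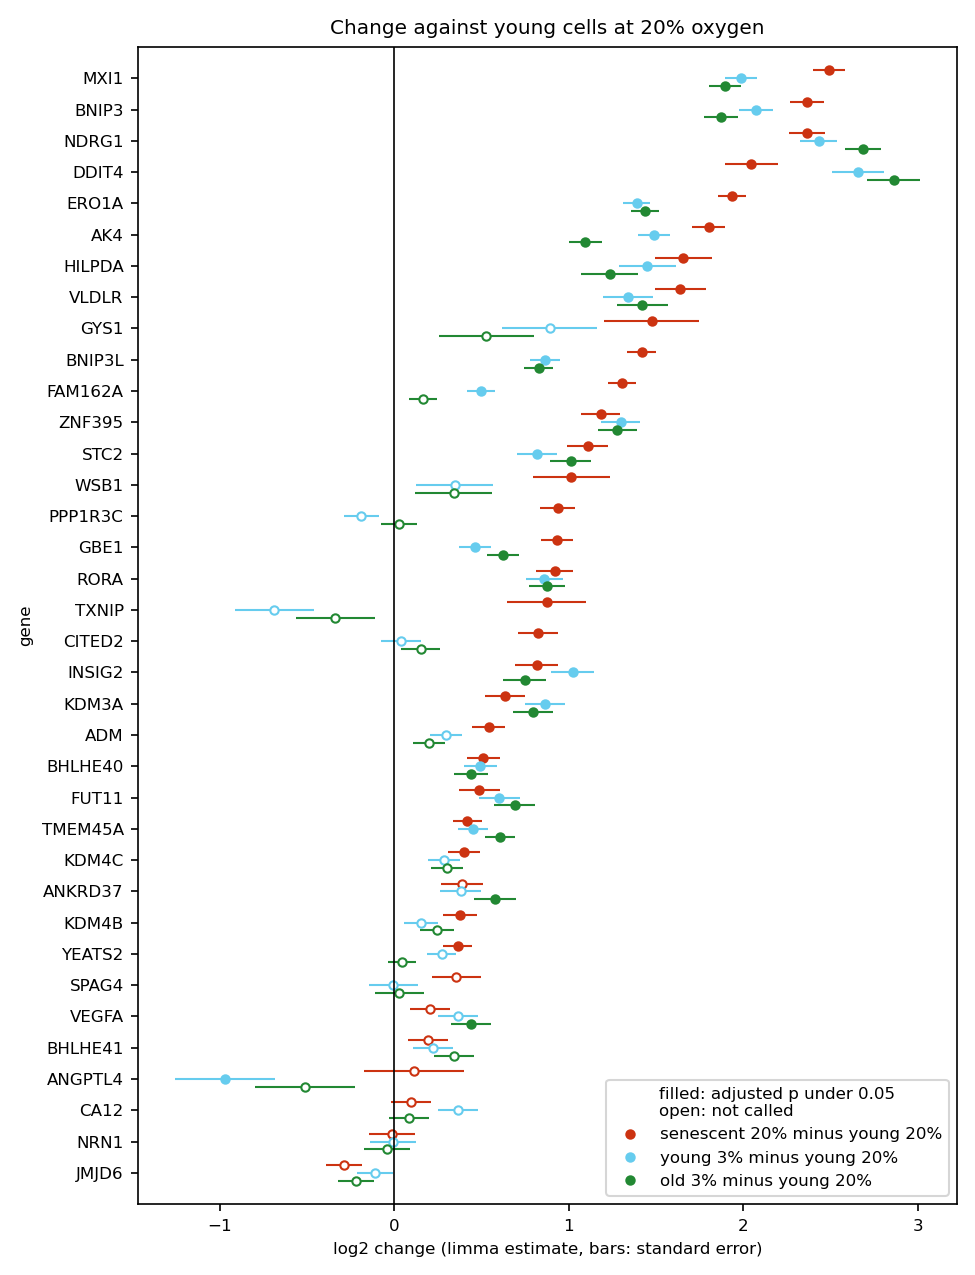
Log2 change of each gene (vertical axis) against young cells at 20% oxygen, for senescent cells at 20%, young cells at 3% and old cells at 3% (horizontal axis; bars give the standard error, filled points are called). MXI1, BNIP3, NDRG1 and DDIT4 lie at 1.87 or above in all 3 comparisons; PPP1R3C, TXNIP and CITED2 are filled for senescent cells and open for both groups at 3%.

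The 4 mitochondrial genes rose together in both comparisons. BNIP3 and BNIP3L encode outer-membrane receptors that direct mitochondria to autophagy. BNIP3 stood at -1.79, -2.06 and -2.03 on the young arrays at 20%, at 0.37, 0.41 and 0.45 on the senescent arrays, at 0.14, 0.19 and 0.02 in young cells at 3% and at -0.03, -0.04 and -0.19 in old cells at 3%. The young arrays at 20% lay far below the others, and the senescent arrays above both groups at 3%. It rose 5.15-fold in senescent cells (2.37 ± 0.10, adjusted p = 1.7e-08) and 4.21-fold in young cells at 3% (2.07 ± 0.10, adjusted p = 4.43e-08). BNIP3L ran from -0.86, -0.90 and -0.80 to 0.51, 0.64 and 0.53 in senescent cells, with 0.08, -0.04 and -0.02 in young and 0.03, -0.01 and -0.11 in old cells at 3%. The order of the groups was the same as for BNIP3, and the rise was 2.67-fold (1.42 ± 0.08) in senescent cells and 1.82-fold (0.86 ± 0.08) in young cells at 3%.

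AK4, an adenylate kinase of the mitochondrial matrix, stood at -1.34, -1.28 and -1.27 in young cells at 20%, at 0.52, 0.59 and 0.42 in senescent cells, at 0.27, 0.17 and 0.15 in young cells at 3% and at -0.04, -0.26 and -0.31 in old cells at 3%. No 2 of the 4 groups overlapped. Its rise was 3.49-fold (1.80 ± 0.09, adjusted p = 1.25e-07) in senescent cells and 2.81-fold (1.49 ± 0.09, adjusted p = 4.26e-07) in young cells at 3%. FAM162A, a mitochondrial protein linked to cell death under hypoxia, stood at -0.32, -0.37 and -0.43, at 0.91, 0.95 and 0.93, at 0.11, 0.07 and 0.18, and at -0.13, -0.25 and -0.26 in the same order of groups. Here the senescent arrays stood apart above the rest, with old cells at 3% nearest to the young cells at 20%. FAM162A rose 2.47-fold in senescent cells (1.30 ± 0.08, adjusted p = 5.62e-07) and 1.41-fold in young cells at 3% (0.50 ± 0.08, adjusted p = 0.00121).

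Among the 3 regulators of growth and stress, NDRG1 and DDIT4 had the widest span of the 36 genes and did not follow the order seen for the mitochondrial genes. DDIT4, an inhibitor of mTORC1 signalling, stood at -2.42, -2.01 and -2.73 in young cells at 20%, at -0.50, -0.31 and -0.20 in senescent cells, at 0.20, 0.26 and 0.36 in young cells at 3% and at 0.54, 0.42 and 0.47 in old cells at 3%. The senescent arrays lay between the young arrays at 20% and the 6 arrays at 3%, with no overlap. It rose 4.13-fold in senescent cells (2.05 ± 0.15, adjusted p = 2.32e-06) and 6.32-fold in young cells at 3% (2.66 ± 0.15, adjusted p = 1.8e-07). NDRG1, a stress-responsive protein that restrains growth, stood at -2.40, -2.32 and -2.53, at 0.04, -0.14 and -0.04, at 0.12, -0.14 and 0.08, and at 0.34, 0.15 and 0.33 in the same order. Senescent cells and young cells at 3% overlapped, and old cells at 3% were above both. The rises were 5.15-fold (2.37 ± 0.10) and 5.4-fold (2.43 ± 0.10).

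TXNIP, which binds thioredoxin and limits glucose uptake, differed from these 2 and was singled out after its values were seen. It stood at 0.21, -0.08 and 0.28 in young cells at 20%, at 0.98, 1.20 and 0.86 in senescent cells, at -0.17, -1.19 and -0.29 in young cells at 3% and at 0.01, -0.19 and -0.42 in old cells at 3%. The senescent arrays were the 3 highest, and replicate 2 of the young cells at 3% lay well below its group. It rose 1.83-fold in senescent cells (0.87 ± 0.23, adjusted p = 0.0224) and was not called in young cells at 3% (-0.69 ± 0.23, adjusted p = 0.0724). The rise in senescent cells was no longer called without replicate 1 or 2 of either group (adjusted p from 0.0566 to 0.0998). Nor was it called with the probe set of the largest SD (0.85, adjusted p = 0.165), on which replicate 2 of the young cells at 3% stood at -1.71.

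Of the 6 transcriptional regulators, 5 rose in senescent cells and 4 in young cells at 3%. MXI1, which competes with MYC for their shared partner MAX, stood at -2.03, -1.87 and -1.93 in young cells at 20%, at 0.58, 0.58 and 0.49 in senescent cells, at 0.13, -0.04 and 0.04 in young cells at 3% and at 0.06, -0.17 and -0.04 in old cells at 3%. The senescent arrays were the 3 highest and the arrays at 3% overlapped each other. MXI1 rose 5.63-fold in senescent cells (2.49 ± 0.09, adjusted p = 1.7e-08) and 3.96-fold in young cells at 3% (1.99 ± 0.09, adjusted p = 4.29e-08). ZNF395, a zinc finger protein, stood at -0.99, -1.23 and -1.24, at -0.01, 0.16 and -0.06, at 0.01, 0.20 and 0.22, and at 0.13, 0.26 and -0.02 in the same order. Its 3 groups other than young cells at 20% overlapped, and the rises were 2.27-fold (1.18 ± 0.11) and 2.46-fold (1.30 ± 0.11).

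RORA, an orphan nuclear receptor with a part in the circadian clock, stood at -0.64, -0.76 and -0.89 in young cells at 20%, at 0.17, 0.25 and 0.05 in senescent cells, at 0.07, 0.13 and 0.10 in young cells at 3% and at 0.27, 0.12 and -0.04 in old cells at 3%. As for ZNF395, only the young arrays at 20% stood apart. It rose by 0.92 ± 0.10 in senescent cells and by 0.86 ± 0.10 in young cells at 3%. BHLHE40, a repressor of clock genes, rose by 0.51 ± 0.10 and 0.49 ± 0.10, and its relative BHLHE41 was called in neither (0.19 ± 0.11 and 0.22 ± 0.11). CITED2, which competes with the factors' alpha subunits for the coactivators CREBBP and EP300, had another pattern and was singled out after its values were seen. It stood at -0.19, -0.20 and -0.00 in young cells at 20%, at 0.77, 0.81 and 0.51 in senescent cells, at -0.20, -0.10 and 0.02 in young cells at 3% and at 0.17, 0.00 and -0.11 in old cells at 3%. The senescent arrays alone were high, and the other 3 groups overlapped. CITED2 rose 1.77-fold in senescent cells (0.83 ± 0.11, adjusted p = 0.00038) and was not called in young cells at 3% (0.04 ± 0.11, adjusted p = 0.874).

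All 3 glycogen genes rose in senescent cells, and only GBE1 was called in young cells at 3%. GYS1, the muscle-type glycogen synthase that lengthens the chains, stood at -0.81, -0.24 and -1.14 in young cells at 20%, at 0.65, 0.95 and 0.64 in senescent cells, at -0.35, 0.58 and 0.26 in young cells at 3% and at 0.23, -0.23 and -0.61 in old cells at 3%. The senescent arrays were the 3 highest, while the other groups spread widely and overlapped each other. GYS1 rose 2.78-fold in senescent cells (1.48 ± 0.27, adjusted p = 0.00302) and missed the threshold in young cells at 3% (0.89 ± 0.27, adjusted p = 0.0538). PPP1R3C, which brings protein phosphatase 1 to glycogen, was also singled out after its values were seen. It stood at -0.01, 0.09 and -0.19 in young cells at 20%, at 0.92, 0.92 and 0.87 in senescent cells, at -0.34, -0.06 and -0.27 in young cells at 3% and at 0.06, -0.04 and -0.04 in old cells at 3%. The senescent arrays stood apart, and the other 9 lay between -0.34 and 0.09. PPP1R3C rose 1.91-fold in senescent cells (0.94 ± 0.10, adjusted p = 5.43e-05) and was not called in young cells at 3% (-0.19 ± 0.10, adjusted p = 0.291). On 1 of its 2 probe sets, young cells at 3% stood at -0.46, -0.54 and -0.42, below the 0.06, 0.13 and -0.06 of young cells at 20%. GBE1, the enzyme that adds branches, rose by 0.93 ± 0.09 in senescent cells and by 0.46 ± 0.09 in young cells at 3%.

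**Figure D3:**
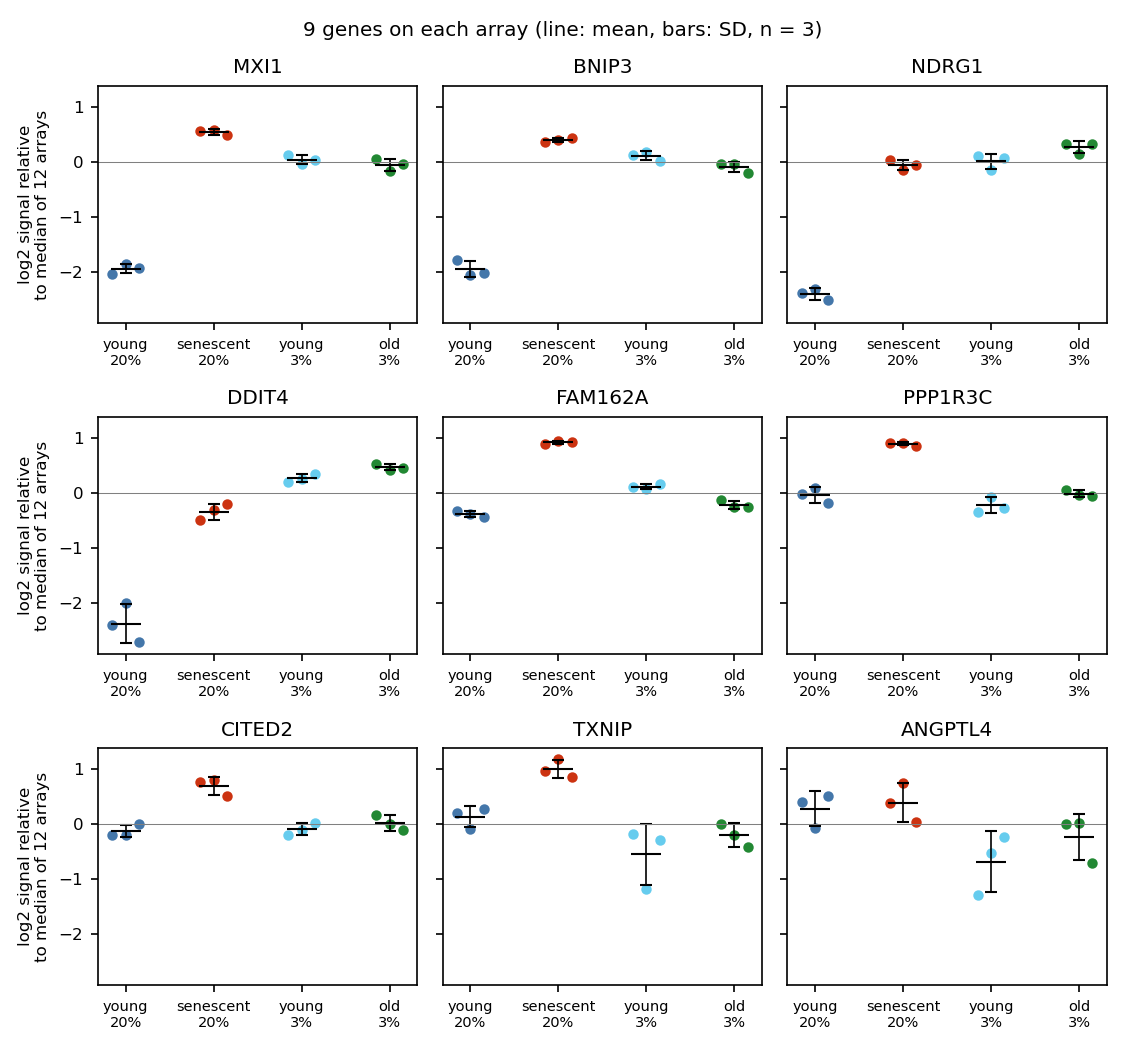
Log2 signal relative to the median of 12 arrays (vertical axis) of 9 genes in the 4 groups (horizontal axis); points are arrays, lines group means and bars the SD of 3 arrays. MXI1, BNIP3, NDRG1 and DDIT4 are low in young cells at 20%, whereas PPP1R3C, CITED2 and TXNIP are high in senescent cells.

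The 3 lipid genes rose in both comparisons. ANGPTL4, an inhibitor of lipoprotein lipase, was counted among the secreted factors and is given with them. HILPDA, a lipid droplet protein that inhibits triglyceride breakdown, stood at -1.30, -1.24 and -1.32 in young cells at 20%, at 0.63, 0.41 and 0.07 in senescent cells, at 0.27, -0.03 and 0.25 in young cells at 3% and at 0.27, -0.10 and -0.32 in old cells at 3%. VLDLR, a receptor for lipoproteins, stood at -1.28, -1.20 and -1.59, at 0.31, 0.25 and 0.28, at -0.01, -0.05 and 0.01, and at 0.39, -0.24 and 0.04 in the same order. INSIG2, which holds back cholesterol synthesis, stood at -0.75, -0.73 and -0.80, at 0.21, 0.15 and -0.19, at 0.38, 0.04 and 0.36, and at 0.09, -0.04 and -0.08. In each, the young arrays at 20% were the 3 lowest. HILPDA rose 3.15-fold in senescent cells and 2.73-fold in young cells at 3% (1.66 ± 0.16 and 1.45 ± 0.16). VLDLR rose 3.11-fold and 2.53-fold (1.64 ± 0.15 and 1.34 ± 0.15). INSIG2 had the smaller change in senescent cells, 0.81 ± 0.12 against 1.02 ± 0.12 in young cells at 3%, and the difference between these 2 groups was not called (-0.21 ± 0.12, adjusted p = 0.328).

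Among the 3 genes of protein modification, ERO1A, the oxidase that drives disulfide bond formation in the endoplasmic reticulum, stood at -1.39, -1.51 and -1.36 in young cells at 20%, at 0.55, 0.52 and 0.48 in senescent cells, at -0.03, -0.06 and 0.00 in young cells at 3% and at -0.00, -0.00 and 0.06 in old cells at 3%. Replicates lay close together, and the senescent arrays formed a step above both groups at 3%. ERO1A rose 3.83-fold in senescent cells (1.94 ± 0.08, adjusted p = 1.7e-08) and 2.62-fold in young cells at 3% (1.39 ± 0.08, adjusted p = 1.9e-07). WSB1, the substrate receptor of a ubiquitin ligase, stood at -0.40, -0.51 and -0.23, at 0.65, 0.95 and 0.30, at 0.10, -0.53 and 0.32, and at 0.25, -0.07 and -0.30. Its spread within groups was wide, and it rose in senescent cells (1.01 ± 0.22, adjusted p = 0.00813) but was not called in young cells at 3% (0.35 ± 0.22, adjusted p = 0.386). FUT11, a protein fucosyltransferase now named POFUT4, rose by 0.49 ± 0.12 and 0.60 ± 0.12. Its call in senescent cells ended without replicate 1 or 3 of the young or replicate 2 or 3 of the senescent arrays (adjusted p from 0.0524 to 0.0655).

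Changes of the 5 chromatin genes were smaller. The histone lysine demethylase KDM3A rose by 0.63 ± 0.11 in senescent cells and by 0.86 ± 0.11 in young cells at 3%. KDM4B, KDM4C and YEATS2 were called in senescent cells alone of these 2 groups. KDM4B, a demethylase of histone H3, stood at -0.22, -0.23 and -0.14 in young cells at 20%, at 0.16, 0.24 and 0.14 in senescent cells, at -0.21, 0.06 and 0.02 in young cells at 3% and at 0.09, 0.13 and -0.08 in old cells at 3%. KDM4C, its paralogue, stood at -0.21, -0.34 and -0.24, at 0.12, 0.15 and 0.14, at 0.15, -0.12 and 0.03, and at -0.07, 0.13 and 0.05 in the same order. YEATS2, a reader of acylated histones, stood at -0.20, -0.08 and -0.21, at 0.11, 0.26 and 0.23, at 0.13, 0.12 and 0.07, and at -0.12, -0.08 and -0.16. In all 3 the senescent arrays lay above the young arrays at 20% without overlap, and the groups at 3% fell between or beside them.

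The changes in senescent cells were 0.37 ± 0.10 for KDM4B, 0.40 ± 0.09 for KDM4C and 0.36 ± 0.08 for YEATS2. Each call rested on a narrow margin. KDM4B lost it when any array but replicate 3 of the young cells was left out (adjusted p from 0.0505 to 0.0839) and with the probe set of the largest SD (0.14, adjusted p = 0.917). On that probe set, replicate 1 of the young cells at 3% stood at -1.23 and replicate 2 of the old cells at 0.65. The 8 probe sets of KDM4B had changes from -0.05 to 1.12 in senescent cells. KDM4C lost its call without replicate 2 of the young cells (adjusted p = 0.0619) and YEATS2 without replicate 1 (adjusted p = 0.0525). In young cells at 3% the changes were 0.15 ± 0.10, 0.29 ± 0.09 and 0.27 ± 0.08 (adjusted p = 0.388, 0.0732 and 0.0511). The direct difference between senescent cells and young cells at 3% was called for none of the 3 (adjusted p from 0.183 to 0.512). JMJD6, a lysyl hydroxylase, was the only chromatin gene with a negative change in senescent cells, and it was not called (-0.29 ± 0.10, adjusted p = 0.0964).

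Of the 5 secreted factors, 2 rose in senescent cells, and in young cells at 3% 1 rose and 1 fell. STC2, a secreted glycoprotein hormone, stood at -1.01, -0.70 and -1.08 in young cells at 20%, at 0.19, 0.10 and 0.25 in senescent cells, at -0.27, 0.05 and -0.12 in young cells at 3% and at 0.15, 0.03 and 0.06 in old cells at 3%. The young arrays at 20% stood apart below, and the rises were 2.16-fold (1.11 ± 0.12) in senescent cells and 1.76-fold (0.82 ± 0.12) in young cells at 3%. The vasodilator peptide gene ADM rose by 0.54 ± 0.09 in senescent cells and was not called in young cells at 3% (0.29 ± 0.09, adjusted p = 0.0607). VEGFA, the growth factor of blood vessels, stood at -0.31, -0.32 and -0.12, at -0.10, 0.09 and -0.13, at 0.14, -0.01 and 0.23, and at 0.34, 0.25 and -0.00 in the same order. The lowest senescent array lay just under the highest young array at 20%, so these 2 groups overlapped. VEGFA was called neither in senescent cells (0.20 ± 0.11, adjusted p = 0.369) nor in young cells at 3% (0.37 ± 0.11, adjusted p = 0.0599). It was called in old cells at 3% against young cells at 20% (0.44 ± 0.11, adjusted p = 0.0209), a call that ended without replicate 1 or 2 of either group (adjusted p from 0.0811 to 0.0905). NRN1, a neurite-promoting protein, had a change of -0.01 ± 0.13 in both comparisons.

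ANGPTL4, a secreted inhibitor of lipoprotein lipase, was the gene called in the direction opposite to the others. It stood at 0.40, -0.07 and 0.52 in young cells at 20%, at 0.39, 0.76 and 0.04 in senescent cells, at -1.30, -0.53 and -0.23 in young cells at 3% and at 0.01, 0.02 and -0.71 in old cells at 3%. The young arrays at 3% lay below both groups at 20% and spread by more than 1 unit. In young cells at 3% it fell by 0.97 ± 0.29 on the log2 scale (adjusted p = 0.0455), and in senescent cells it was not called (0.11 ± 0.29, adjusted p = 0.906). The fall was no longer called without replicate 1 or 3 of the young cells at 20% or replicate 1 or 2 of those at 3% (adjusted p from 0.0785 to 0.173), nor with a replicate block (adjusted p = 0.0797).

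Of the 2 membrane proteins, TMEM45A, a multi-pass protein, rose by 0.42 ± 0.09 in senescent cells and by 0.45 ± 0.09 in young cells at 3%. CA12, a carbonic anhydrase at the cell surface, stood at -0.13, -0.10 and -0.13 in young cells at 20%, at -0.08, 0.18 and -0.18 in senescent cells, at 0.04, 0.35 and 0.35 in young cells at 3% and at 0.04, -0.02 and -0.13 in old cells at 3%. The 2 highest arrays were young cells at 3%, but CA12 was called in neither comparison (0.10 ± 0.11 and 0.37 ± 0.11, adjusted p = 0.76 and 0.0598). The remaining 2 genes, ANKRD37, an ankyrin repeat protein, and SPAG4, a nuclear envelope protein, were not called either. ANKRD37 had changes of 0.39 ± 0.12 and 0.38 ± 0.12 (adjusted p = 0.0524 and 0.06), and SPAG4 of 0.36 ± 0.14 and -0.01 ± 0.14.

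Old, nonsenescent cells were compared with young cells at 3% oxygen to give the passage difference where the cells still divided. limma called 0 of the 36 genes, where 1.74% of all genes were called. At an unadjusted p under 0.05 there were 6 genes, AK4, CA12, FAM162A, INSIG2, NDRG1 and YEATS2 (14.2% of all genes). The median change was 0.02 against 0.05 over all genes. The groups did not overlap for 4 genes in the higher direction and 5 in the lower, against 9.36% and 6.23% of all genes. Closest to the threshold were AK4 (-0.39 ± 0.09, adjusted p = 0.0586) and FAM162A (-0.33 ± 0.08, adjusted p = 0.0643), both mitochondrial and both lower in old cells on all 3 arrays. They passed it when the arrays were quantile-normalized again (adjusted p = 0.0242 and 0.0316), centred on their medians (0.0265 and 0.0433) or weighted by quality (0.0431 and 0.0373). AK4 also passed it without replicate 1 of the old cells (adjusted p = 0.0385), and CA12 did with the probe set of the largest SD (-0.96, adjusted p = 0.0123). NDRG1 and DDIT4 had positive changes of 0.25 ± 0.10 and 0.20 ± 0.15, and with TMEM45A they were the 3 genes whose old arrays lay above the other 9, a pattern of 2.28% of all genes. Against the young cells at 20%, old cells at 3% had 20 genes called higher and 0 lower, where 6.46% and 6.80% of all genes were called (13.3% in either direction), with DDIT4 at 7.27-fold (2.86 ± 0.15) and NDRG1 at 6.43-fold (2.69 ± 0.10).

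The passage change at 20% oxygen was also tested directly against that at 3%, as the difference of the 2 changes. It subtracts the same young arrays at 20% as the comparisons above, so it is not independent of them. Of the 36 genes, 22 were called with a larger change at 20% and 0 with a smaller one, where 2.06% and 4.37% of all genes were called (6.44% in either direction). MXI1 led, with a difference of 2.58 ± 0.13 (adjusted p = 3.05e-07), followed by BNIP3 with 2.57 ± 0.14 (adjusted p = 4.97e-07) and AK4 with 2.20 ± 0.13. TXNIP, ANGPTL4 and VEGFA were among the 14 genes not called (0.52 ± 0.32, -0.34 ± 0.40 and 0.13 ± 0.16).

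Senescent cells at 20% oxygen were then set against the cells at 3%. For 13 of the 36 genes all 3 senescent arrays lay above the other 9, a pattern of 4.19% of all genes. They were the 4 mitochondrial genes, the 3 glycogen genes, MXI1, CITED2, ERO1A, ADM, TXNIP and KDM4B. Against young cells at 3%, 9 genes were called higher and 1 lower, where 5.20% and 5.70% of all genes were called (10.9% in either direction). The groups did not overlap for 16 genes in the higher and 3 in the lower direction, against 15.5% and 11.7% of all genes. Higher in senescent cells were TXNIP (2.95-fold, 1.56 ± 0.23, adjusted p = 0.000529), PPP1R3C (2.18-fold, 1.13 ± 0.10, adjusted p = 9.02e-06), ANGPTL4 (2.11-fold, 1.08 ± 0.29, adjusted p = 0.0285) and FAM162A (1.75-fold, 0.81 ± 0.08, adjusted p = 2.41e-05). CITED2, BNIP3L, ERO1A, MXI1 and GBE1 followed, with changes between 0.47 and 0.79. DDIT4 was the gene called lower (-0.61 ± 0.15, adjusted p = 0.0186). DDIT4 lost that call without replicate 1 or 2 of the senescent cells or replicate 3 of the young cells at 3% (adjusted p from 0.0514 to 0.0852). ANGPTL4 lost its call without replicate 1 or 2 of the senescent cells or replicate 1 of the young cells at 3% (adjusted p from 0.0802 to 0.123), and with a replicate block (adjusted p = 0.0545).

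Old cells at 3% against senescent cells at 20% gave 13 genes called lower in the old cells and 1 higher, where 4.41% and 6.59% of all genes were called (11.0% in either direction). The groups did not overlap for 16 genes in the lower and 3 in the higher direction, against 11.5% and 12.8% of all genes. The median change was -0.17 against -0.02. All 4 mitochondrial genes were lower in old cells. FAM162A was lower by 2.21-fold (-1.14 ± 0.08, adjusted p = 8.91e-07) and AK4 by 1.63-fold (-0.71 ± 0.09, adjusted p = 0.000235), while BNIP3L and BNIP3 differed by -0.59 ± 0.08 and -0.49 ± 0.10. All 3 glycogen genes were lower too, PPP1R3C by 1.88-fold (-0.91 ± 0.10, adjusted p = 5.02e-05), GYS1 by 1.93-fold (-0.95 ± 0.27, adjusted p = 0.0423) and GBE1 by 1.24-fold (-0.31 ± 0.09, adjusted p = 0.0468). TXNIP (-1.21 ± 0.23, adjusted p = 0.00318), CITED2 (-0.68 ± 0.11), MXI1 (-0.60 ± 0.09), ERO1A (-0.50 ± 0.08), ADM (-0.34 ± 0.09, adjusted p = 0.032) and YEATS2 (-0.32 ± 0.08, adjusted p = 0.0245) completed the lower genes. DDIT4 was higher in old cells (1.76-fold, 0.82 ± 0.15, adjusted p = 0.00295), and NDRG1 missed the threshold (0.32 ± 0.10, adjusted p = 0.0731).

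Of these 14 calls, 10 held when any 1 of the 6 arrays was left out. ADM and GBE1 lost theirs without any 1 of the 6 (adjusted p from 0.0674 to 0.109 and from 0.0596 to 0.153). GYS1 lost its call without any array but replicate 1 of the old cells (adjusted p from 0.0835 to 0.141), and YEATS2 without any but replicate 1 of the senescent cells (0.0522 to 0.0925). A fit with the replicate number as a block in these 6 arrays alone used a pairing chosen from the same data. There HILPDA (-0.42, adjusted p = 0.0174) and WSB1 (-0.67, adjusted p = 0.0493) became called as lower and GBE1 was not called (adjusted p = 0.0585). With the probe set of the largest SD for each gene, TXNIP (-1.13, adjusted p = 0.0601) was not called. ADM and GBE1 were not called there either (adjusted p = 0.085 and 0.117). Each of these has only 1 probe set, so its change was the same, and only the parts of the test drawn from all genes differed.

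**Figure D4:**
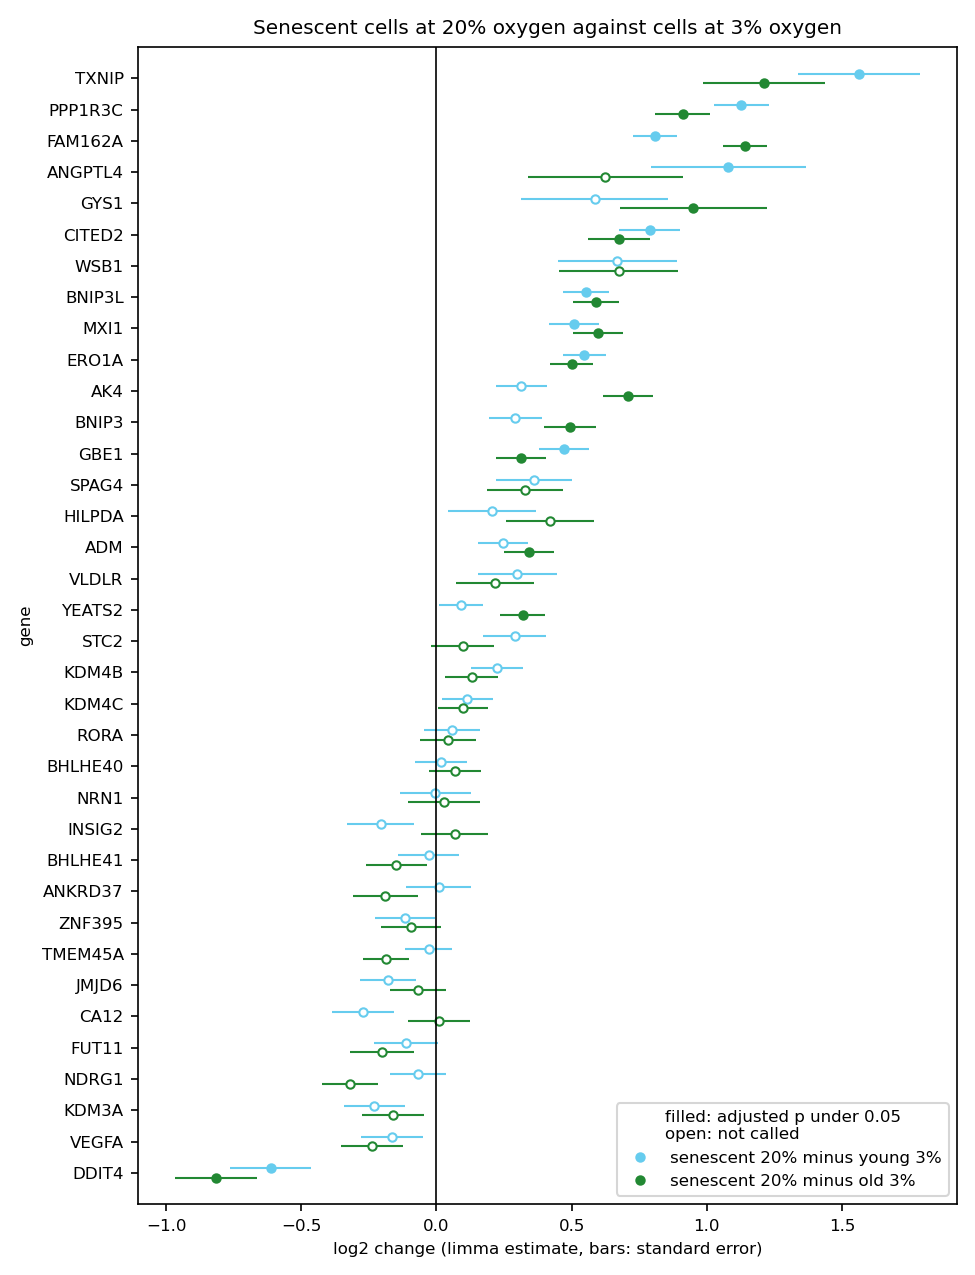
Log2 difference of senescent cells at 20% oxygen from young cells and from old cells at 3% (horizontal axis; positive values are higher in senescent cells, bars give the standard error, filled points are called) for each gene (vertical axis). TXNIP, PPP1R3C and FAM162A are far to the right and DDIT4 to the left in both comparisons.

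Probe sets of 1 gene did not always move alike between senescent and young cells at 20%. Of the 25 genes with several probe sets, 7 had probe sets of both signs: CA12 (-0.07 to 0.28), FAM162A (-0.03 to 1.84), KDM4B (-0.05 to 1.12), KDM4C (-0.22 to 0.86), RORA (-0.00 to 2.55), VEGFA (-0.01 to 0.32) and YEATS2 (-0.01 to 0.74). For FAM162A, 4 of 5 probe sets had changes of 1.26 to 1.84 and 1 of -0.03. PPP1R3C rested on 2 probe sets, at 1.64 and 0.24, CITED2 on 3, at 1.16, 1.08 and 0.24, and ZNF395 on 3, at 2.84, 0.54 and 0.17. The 2 probe sets of BNIP3 lay closer together, at 2.20 and 2.53. Between young cells at 3% and young cells at 20%, BHLHE41, ANKRD37, PPP1R3C, CA12 and VEGFA were not called as means, but their probe sets differed. The 4 of BHLHE41 stood at 0.87, 0.21, -0.05 and -0.14, and the 2 of ANKRD37 at 1.03 and -0.27. Those of PPP1R3C stood at -0.52 and 0.14. The 7 of CA12 ran from -0.11 to 0.90, and the 4 of VEGFA stood at 0.65, 0.51, 0.15 and 0.15. A mean over probe sets that differ this much gives a smaller change than its most responsive probe set.

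**Figure D5:**
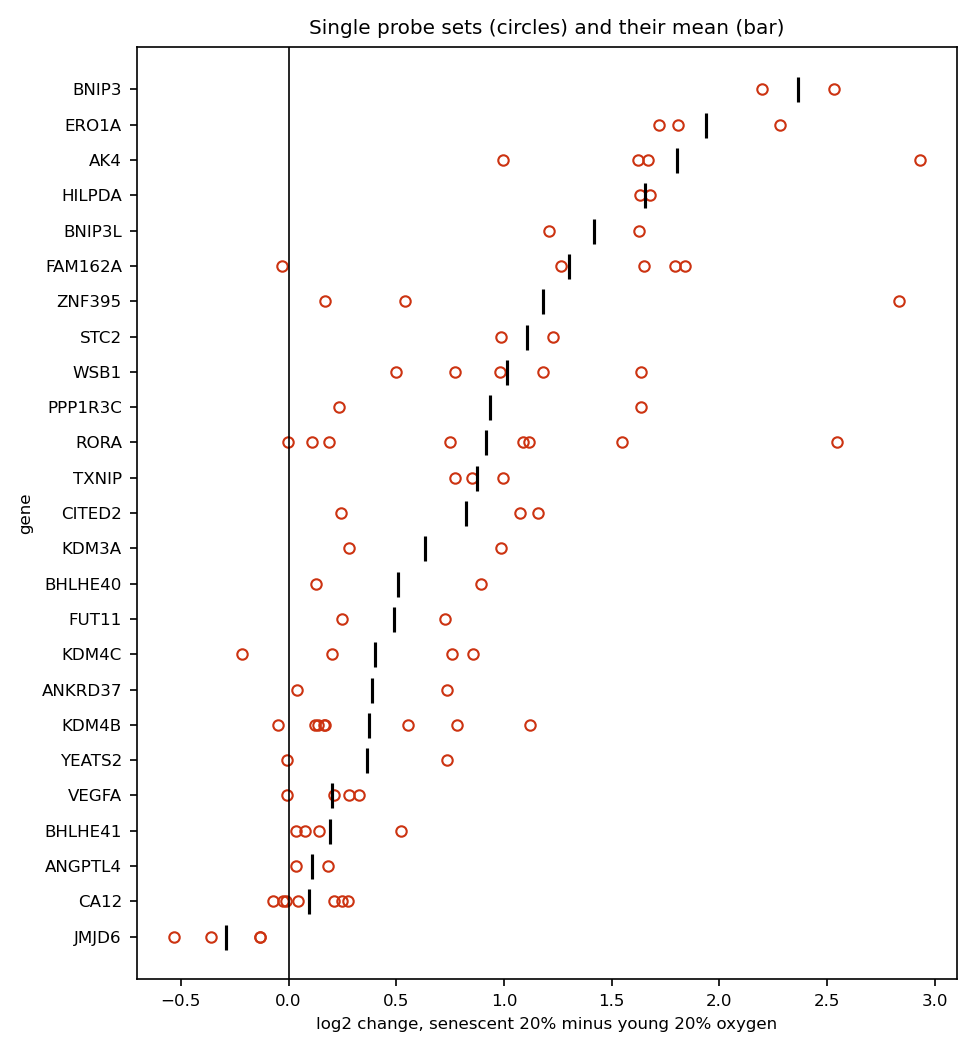
Log2 change between senescent and young cells at 20% oxygen (horizontal axis) of each probe set (circles) and the mean (bar) for the genes with several probe sets (vertical axis). RORA spans -0.00 to 2.55 and ZNF395 0.17 to 2.84, whereas the 2 probe sets of HILPDA lie at 1.63 and 1.68.

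Other genes of the pathway were read from fixed lists. Of 14 genes of the machinery that sets the factors' activity, 2 were called in senescent against young cells at 20%, a share near the 12.5% of all genes called there: the prolyl hydroxylase EGLN1 was called higher in senescent cells (0.80 ± 0.14, adjusted p = 0.0022) and the ubiquitin ligase scaffold CUL2 lower (-0.80 ± 0.13, adjusted p = 0.0011). In young cells at 3%, where 11.8% of all genes were called, EGLN1 and the ligase subunit RBX1 were called higher and CUL2 lower. HIF1A itself had a change of 0.10 ± 0.09 in senescent cells and of -0.29 ± 0.09 in young cells at 3% (adjusted p = 0.627 and 0.0539), and senescent cells were above young cells at 3% (0.40 ± 0.09, adjusted p = 0.0116). EGLN3, another prolyl hydroxylase, stood at -0.26, -0.16 and -0.64 in young cells at 20%, at -0.07, -0.44 and 0.04 in senescent cells, at 0.02, 0.07 and 0.00 in young cells at 3% and at 1.20, 0.95 and 0.82 in old cells at 3%. It was the machinery gene called between old and young cells at 3% (0.96 ± 0.15, adjusted p = 0.00563), where 1.74% of all genes and 0 of the 36 targets were called. Glycolytic targets had 15 of 19 called higher and 1 lower in senescent cells, and 16 higher and 1 lower in young cells at 3%, with medians of 0.63 and 0.62; of all genes, 4.67% and 4.96% were called higher in these comparisons. The 6 matrix-modifying targets were all called higher in both, with medians of 1.12 and 0.62. Between old and young cells at 3% the glycolytic and matrix-modifying lists had 0 calls, as had the 36 targets. With 1.74% of all genes called there, counts of 0 in lists this short do not set them apart from other genes or from EGLN3.

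Of 8 fibroblast markers, 3 fell in senescent cells against young cells at 20%, DCN (-1.06 ± 0.10), PDGFRA (-0.77 ± 0.13) and VIM (-0.62 ± 0.10); of 5 pericyte and smooth muscle markers, 1 fell, ACTA2 (-0.69 ± 0.11). Of all genes, 7.84% were called lower there. Of 6 epithelial, 5 endothelial and 4 immune markers, 0 were called there. In young cells at 3%, 1 fibroblast marker was called higher and 3 lower, 1 pericyte and smooth muscle marker higher and 2 lower, and 1 epithelial marker lower, where 4.96% of all genes were called higher and 6.84% lower. The mean of the 8 fibroblast markers ran from 0.14 to 0.20 on the young arrays at 20%, from -0.05 to -0.01 on the senescent arrays, from -0.19 to -0.06 in young cells at 3% and from -0.12 to -0.01 in old cells at 3%. For ACTB, the signal of the 3′ control minus that of the 5′ control, a sign of RNA quality, ran from -0.19 to 0.25, from 0.02 to 0.35, from -0.18 to 0.71 and from -0.22 to 0.02 in the same order, so the senescent and old ranges did not meet and the others overlapped. For GAPDH the same difference ran from -0.04 to 0.27, from -0.08 to 0.05, from 0.00 to 0.36 and from -0.07 to -0.01, so that here young and old cells at 3% did not meet, and senescent and old cells overlapped. The part of these markers and controls in the results was not tested.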

How the data were processed

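RNA of the 12 arrays was summarised by the submitters with RMA, per the submitters' processing notes; its version and the base of the logarithm are not given in the sources used here. The values the authors deposited were used as log2 signals; each probe set's median across the 12 arrays is 0 (largest absolute median 5e-07). Of 54675 probe sets, 62 controls, 1801 that name several genes and 11721 that name none were left out, among them 3 of ZNF395 and 1 of WSB1 that also name another gene. Probe sets naming 1 gene (41091, of which 41037 matched a current symbol through their Entrez identifier) were averaged per gene, which gave 19775 genes. A limma model (lmFit, eBayes; limma 3.58.1, R 4.3.3) of the 4 group means took in all 12 arrays, two-sided, with Benjamini-Hochberg adjustment over the genes within each contrast and calls at an adjusted p under 0.05. The fit was tested on simulated data whose noise was independent between arrays. Some real arrays deviated together, as given below, so that test does not show the rate of false calls here. The number of arrays limits the precision.

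The genes, lists and tests were chosen with earlier results of these data known. All measured listed genes may be named; values on each array are given for those called with an absolute log2 change of at least 1 in senescent or young 3% cells against young cells at 20%, those called against the common direction and those whose probe sets disagree in sign. TXNIP, CITED2 and PPP1R3C fall outside this rule; they were added after their values were seen. Genes outside the list come from the fixed pathway and marker lists. Same-numbered arrays of senescent and old cells deviated together from their group means (correlations 0.129, 0.519 and 0.669). In no other 2 groups did all 3 correlations exceed 0.1, but single ones ran from -0.591 to 0.430. The labels give replicate numbers and name no pairs, and the main fit used none. An alternative fit took these numbers as pairs, a choice made from the same data that cannot show whether the arrays were paired. Alternatives were another normalization, centring, probe set choice, a filter on flat genes, robust eBayes, array weights, fits of single comparisons, replicate blocks, stricter thresholds and leaving out each array.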

Additional observations from a re-analysis of the deposited data

Results flagged for a closer look

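The change from young to senescent cells at 20% oxygen was set against the change from young to old cells at 3% as a difference of the 2 changes in the same limma fit. The 22 genes called with a larger change at 20% are given here, and the median difference over the 36 was 0.72 against -0.03 over all genes. The senescent and old cells also differ in senescence and population doubling, so the parts of these cannot be told apart. The young arrays at 20% enter this difference as they do the comparisons above, so it is not independent of them. The differences, each on the log2 scale, were 2.58 for MXI1 (adjusted p = 3.05e-07), 2.57 for BNIP3, 2.20 for AK4, 2.11 for NDRG1, 1.89 for ERO1A and 1.87 for HILPDA. DDIT4 and GYS1 had 1.84 each (adjusted p = 0.000194 and 0.0122), FAM162A 1.64, VLDLR 1.56, BNIP3L 1.45 and ZNF395 1.20. Smaller differences were those of INSIG2 (1.09), STC2 (0.91), RORA (0.90), GBE1 (0.77), PPP1R3C (0.72) and CITED2 (0.71). KDM3A followed with 0.70, ADM with 0.64, YEATS2 with 0.59 and BHLHE40 with 0.56 (adjusted p = 0.0273). WSB1, with 1.02 ± 0.31, was not called (adjusted p = 0.0791).

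Of the 22 calls, 19 held when any 1 of the 12 arrays was left out. BHLHE40 lost its call without replicate 1 or 2 of the young or of the senescent cells at 20%, or replicate 2 or 3 of the young cells at 3% (adjusted p from 0.0519 to 0.0749), and with a replicate block (adjusted p = 0.0507). CITED2 lost it without replicate 1 or 2 of the young cells at 20% or replicate 1 of the senescent cells (0.0534 to 0.0595). KDM3A lost it without replicate 1 or 3 of the young cells at 20% or replicate 1 of the senescent cells (0.0513 to 0.0557), and with the probe set of the largest SD (0.0512).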

How the results depend on the processing

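Over 3492 checks of a single gene under an alternative, 3318 stayed on the same side of the threshold, 93 gained a call and 81 lost one. In 0 checks did a called value change sign. Direction was not compared for genes called in neither fit. The count of genes called moved by over 1.5 times under these settings. Between old and young cells at 3% it went from 0 to 2 with quantile normalization again, with arrays centred on their medians and with array weights, and to 1 with the probe set of the largest SD. With a minimum log2 change of 1, the counts were 14 for senescent and 10 for young 3% cells against young cells at 20%, 2 for old against senescent cells, 3 for senescent against young 3% cells, 10 for old cells against young cells at 20%, and 13 for the difference of changes; of all 19775 genes, 372, 459, 470, 409, 598 and 452 passed in the same order. Leaving out 1 array gave 24 to 27 calls in the first of these comparisons, 19 to 23 in the second, 10 to 12, 8 to 12, 19 to 21 and 19 to 23 in the others in the same order, and 0 to 1 between old and young cells at 3%. With the replicate number as a replicate block over all 12 arrays the counts were 28, 20, 13, 9, 20 and 21, and 0 for old against young cells at 3%; GYS1 became called in young cells at 3% (adjusted p = 0.0414). With a replicate block in the 6 arrays of senescent and old cells 15 genes were called, 13 of them shared with the fit without it. The filter on flat genes kept 29 of the 36 genes. Renewed scaling moved the median of all genes by at most 0.043 in size. The difference of changes could not be fitted in single pairs of groups. Signal over background cannot be read from centred values, so dim probe sets could not be set apart.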
